A study of Mus musculus with 16 samples.

Results

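The genes described here are the chemokines (Ccl and Cxcl genes), the interleukins (Il genes) and their receptors (Ccr, Cxcr and Il genes) of the neonatal mouse heart. They were chosen by symbol: protein-coding genes of GENCODE whose name starts with Ccl, Ccr, Cxcl, Cxcr or Il followed by a digit. In the table of 51912 genes, 141 fit this pattern, and the 107 with a summed count of at least 10 over the 16 libraries are the members. Of the other 34 genes, 18 had no count in any library. The members with the fewest counts were Ccr1l1 with 10, Il17c and Il13 with 11 each, and Il31ra and Cxcl17 with 12 each, and the genes just outside were Il19 with 9 counts, Il23r with 8 and Il10 and Ccl4 with 7 each. Il10 is therefore not described further. The pattern also takes in Il4i1, an amino acid oxidase named after its induction by interleukin-4.

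The study asked how loss of LRRC10, a cardiomyocyte protein, bears on the regrowth of the neonatal heart after myocardial infarction (MI). Total RNA of whole ventricles, from above and below the ligature, was sequenced from 16 mice, 4 in each of 4 groups. WT SH and KO SH were C57BL/6J wild-type (WT) and Lrrc10-/- (KO) mice after sham surgery, in which neither the heart was exposed nor a coronary artery tied. WT MI and KO MI were mice of the same 2 genotypes after ligation of the left anterior descending artery. Surgery was on postnatal day 1 and all hearts were collected 7 days later. The KO mice lack Lrrc10 in the whole body and were kept on a C57BL/6 background, while the WT mice were bought, so litter and colony cannot be told apart from genotype. Each library is named below by its group and replicate number, and the KO MI numbers are 1, 2, 3 and 7.

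Chemokines are small secreted proteins that guide leukocytes along a gradient to G protein-coupled receptors, and the positions of their first cysteines divide them into CC and CXC families. Interleukins act through receptor chains that pair up: the IL-1 family signals through MyD88 to NF-kB, whereas IL-6, IL-15 and IL-7 signal through JAK and STAT proteins. After an infarct, dying myocardium calls neutrophils through CXCR2 and monocytes through CCR2, and in the newborn heart macrophages are needed for regrowth.

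The libraries held between 33783874 and 57470159 counts. Levels are given as CPM, the counts of a gene scaled to the TMM-adjusted library size, and the 3 counts taken as the floor of detection correspond to between 0.0577 and 0.0858 CPM. Lrrc10 had between 1075 and 1850 counts in each WT library and 0 counts in each KO library. The cardiomyocyte markers summed to between 22457 and 35822 CPM, as a label of heart muscle asks. The series calls its groups sex-balanced, but Xist exceeded 100 CPM in 2 libraries each of KO SH, WT MI and KO MI and in none of WT SH. Adding a term for it to the fit left 37 of 38 member calls in place, the exception being Il7r in KO MI against KO SH (adjusted p = 0.101). KO MI 3 stood apart from its group, with 35.2 CPM of the 4 monocyte markers against at most 1.0 CPM in the other KO MI libraries, of which Chil3 alone gave 34.5 CPM. KO MI 2 and KO MI 7 had 64.4 and 104 CPM of the skeletal muscle markers, against at most 11.6 CPM in every other library, and 0.492 and 0.910 CPM of the lung epithelium markers, against at most 0.104. The part of these in the results was not tested. KO MI 1 stood apart in the other direction for the members, as described below. Results in KO MI are therefore given with and without these libraries where that changes a call of a member described.

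Most members were weakly expressed. The median member had 0.337 CPM, 38 members had a mean of at least 1 CPM and 10 a mean of at least 10 CPM. Cxcl12 and Il6st together held 46.3% of the summed member CPM. Per kb of exon, which allows levels of different genes to be compared, Cxcl12 led with 11.5 CPM per kb. This chemokine holds blood progenitors and endothelial cells through CXCR4. It was followed by Il13ra1 with 8.68 CPM per kb, a chain of the IL-4 and IL-13 receptor, and by Il6st with 8.31, which encodes gp130, the chain shared by IL-6, IL-11 and LIF. Il10rb had 6.09 CPM per kb and Il11ra1, the IL-11 receptor, 2.90. The next places belonged to Il15ra with 2.62, Il1r1 with 2.46, Il2rg with 2.14, Ccl6 with 1.89 and Cxcr4 with 1.39 CPM per kb. Among these 10, 8 are receptor chains and 2 are ligands. Cxcl12 exceeded its receptor Cxcr4, whereas the ligands Il6 with 0.0604, Il11 with 0.0107, Il1b with 0.451 and Il15 with 0.953 CPM per kb lay below the receptor chains Il6st, Il11ra1, Il1r1 and Il15ra.

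Of the 107 members, 72 reached 10 counts in every group, summed over its 4 libraries, and were tested. The other 35 fell under this filter in at least 1 group, and among them are several of the chemokines that were near 0 in sham hearts. Genes were called differentially expressed (DEG) by edgeR's quasi-likelihood test at an adjusted p (Benjamini-Hochberg, over all tested genes) under 0.1 and a log2 fold change of 0.5 or more in size. In WT MI against WT SH, 15 of the 72 tested members were higher and 0 lower, where 2.13% of all tested genes were higher and 0.645% lower. At an unadjusted p under 0.05, 26 members passed in that comparison, beside 16.5% of all tested genes, and DESeq2 called 18, beside 3.75%. In KO MI against KO SH, 18 members were higher and 3 lower, where 5.31% of all tested genes were higher and 2.11% lower. There the unadjusted count was 36, beside 26.2%, and DESeq2 called 21, beside 8.34%. With only these 2 groups in the fit, 7 of the 18 were lost, as listed at the end. The 4 MI libraries lay above the 4 sham libraries for 19 tested members and below them for 2 in WT, beside 6.16% and 5.94% of all tested genes, and for 14 and 7 in KO, beside 7.68% and 7.24%. The median log2 fold change of the tested members was 0.32 in WT and 0.29 in KO, beside -0.00 and -0.01 for all tested genes. In bulk tissue, a change in the number of cells of a type and a change in RNA per cell cannot be told apart.

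The comparisons of MI with sham in the 2 genotypes share no library. The members higher in both numbered 11, which is 73.3% of the 15 in WT and 61.1% of the 18 in KO. The same shares were not counted over all tested genes, so these cannot be read as particular to the members. Among the 11 were the ligands Ccl6, Ccl9, Il1b and Il33 and the receptors Ccr1, Ccr2, Cxcr2, Il17ra, Il18r1 and Il7r. Cxcl1, Il18, Il18rap and Il6ra passed in WT alone, though Il18rap passed in KO too without KO MI 2 (adjusted p = 0.0762). Ccl2, Ccl7, Ccr3, Cxcl10, Il1a, Il1r1 and Il1rl1 passed as higher in KO alone in edgeR, of which DESeq2 called Ccr3 and Il1a in WT too. None of these 11 genes passed the test of the difference between the genotypes' responses, in which the adjusted p of each was over the threshold (between 0.422 and 0.830 in edgeR).

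**Figure D1:**
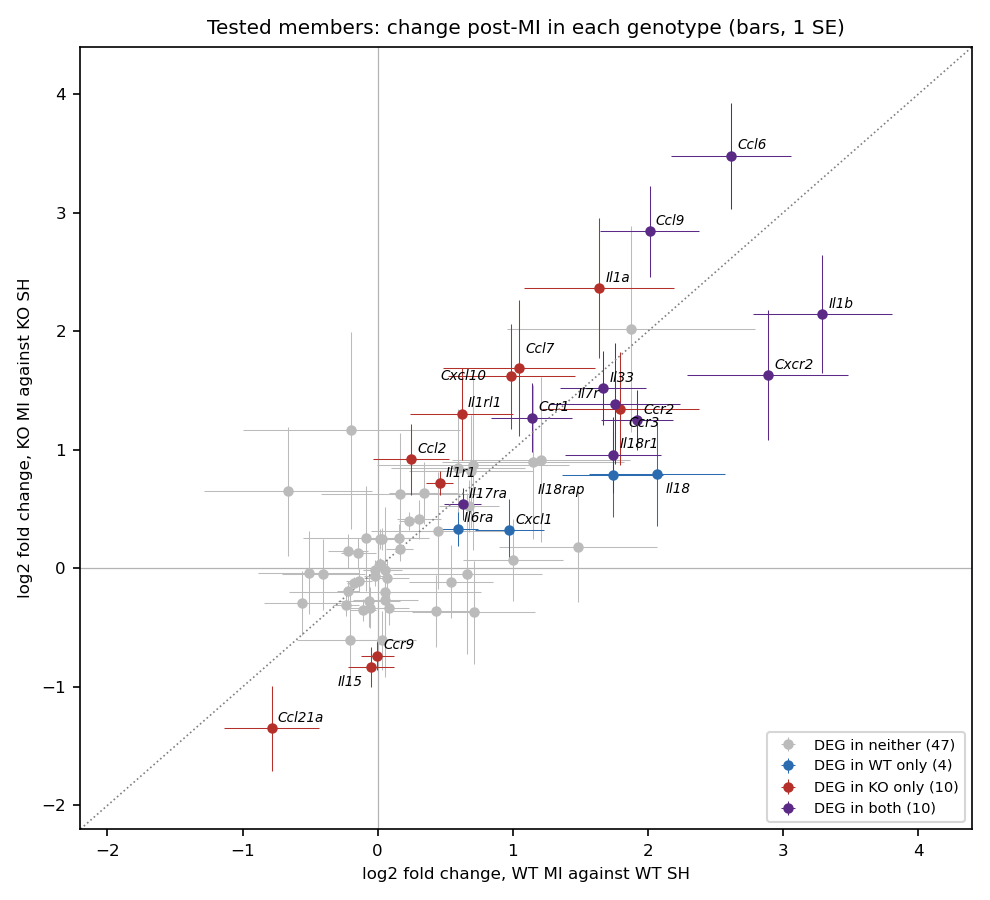
Log2 fold change of 71 tested members in WT MI against WT SH (x axis) and KO MI against KO SH (y axis), with bars of 1 SE; colour marks in which comparison a member was a DEG. Of the points, 10 are DEGs in both, 4 in WT only and 10 in KO only, and the 3 that fell in KO (Ccl21a, Ccr9 and Il15) lie below 0 on the y axis.

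Among the CXC ligands, several bind CXCR2, the neutrophil receptor. Cxcl1, Cxcl2, Cxcl3, Cxcl5 and Cxcl15 lie together on chromosome 5 (chr5:90907186-91053797 in GRCm39). The promoters of Cxcl1, Cxcl2 and Cxcl3 are printed because these neighbours share 1 stretch of sequence and had more counts in every WT MI library than in any sham library. The lines below give the 120 bases before the RefSeq start, 5′ to 3′ on the plus strand of GRCm38.p6, at chr5:90891125-90891244 for Cxcl1, chr5:90903779-90903898 for Cxcl2 and chr5:90785981-90786100 for Cxcl3. Capitals mark matches to the kB motif, the letters bound by NF-kB, and the box TATAAA. The motif was searched on both strands and TATAAA on the strand of the gene.
Cxcl1: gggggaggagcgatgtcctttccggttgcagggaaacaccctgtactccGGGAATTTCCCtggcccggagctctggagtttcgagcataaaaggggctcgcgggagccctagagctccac
Cxcl2: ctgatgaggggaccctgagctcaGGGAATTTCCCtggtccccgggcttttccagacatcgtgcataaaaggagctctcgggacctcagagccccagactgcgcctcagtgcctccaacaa
Cxcl3: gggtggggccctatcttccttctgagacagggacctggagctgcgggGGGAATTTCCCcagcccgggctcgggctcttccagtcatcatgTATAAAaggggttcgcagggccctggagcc
The run GGGAATTTCCC is the same in all 3 and holds 2 overlapping matches, starting 71 bases before the start in Cxcl1, 97 in Cxcl2 and 73 in Cxcl3. Windows from 250 bases before to 50 after the start were available for 81 of the 107 members, 99 windows in all. A kB match was in 14.1% of the members' windows and in 4.51% of all 32851 windows, and TATAAA was in 17.2% and 8.32%. These matches are a description of the letters and show no binding.

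Cxcl1 (ENSMUSG00000029380, chr5:91039094-91040974) was the only 1 of these ligands with enough counts in each group to be tested. Its level was 0.346, 0.561, 0.629 and 0.435 CPM in WT SH, 0.496, 0.594, 0.376 and 0.289 in KO SH, 1.01, 0.947, 1.06 and 0.825 CPM in WT MI, and 0.427, 0.492, 0.732 and 0.535 CPM in KO MI. All WT MI libraries lay above every library of the other 3 groups, and KO MI overlapped both sham groups. Its log2 fold change was 0.98 (SE 0.25, adjusted p = 0.0445) in WT MI against WT SH and 0.32 (SE 0.26, adjusted p = 0.483) in KO MI against KO SH. Post-MI, KO lay below WT by -0.81 on the log2 scale (SE 0.25), which missed the threshold in edgeR (adjusted p = 0.119), passed in DESeq2 (adjusted p = 0.0786) and had an exact permutation p of 0.0286, the smallest that 4 against 4 libraries allow. The rise in WT was lost without WT SH 1 (adjusted p = 0.135), WT MI 2 (0.107) or WT MI 3 (0.105), and without KO MI 3 the gap between KO and WT passed (log2 fold change -0.99, adjusted p = 0.0862).

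Cxcl2, Cxcl3 and Cxcl5 were outside the test and were chosen for description after their values were seen. Cxcl2 had 1, 3, 0 and 2 counts in WT SH and 1, 0, 1 and 3 in KO SH, against 25, 87, 57 and 60 in WT MI and 0, 52, 102 and 31 in KO MI. KO MI 1 was therefore without a count of Cxcl2, while the other 7 MI libraries exceeded all sham libraries. Cxcl3 had no count in any sham library, between 15 and 25 in WT MI, and 1, 8, 17 and 15 in KO MI, which is at least 24.2-fold higher in WT and at least 12.7-fold higher in KO when the sham group is set to 3 counts in all. Cxcl5, which also binds CXCR2, had between 1 and 7 counts in WT SH and 15, 48, 56 and 33 in WT MI, and between 0 and 3 in KO SH and 21, 28, 113 and 43 in KO MI. A looser filter would admit these genes only through their MI libraries, so no test of them is given.

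**Figure D2:**
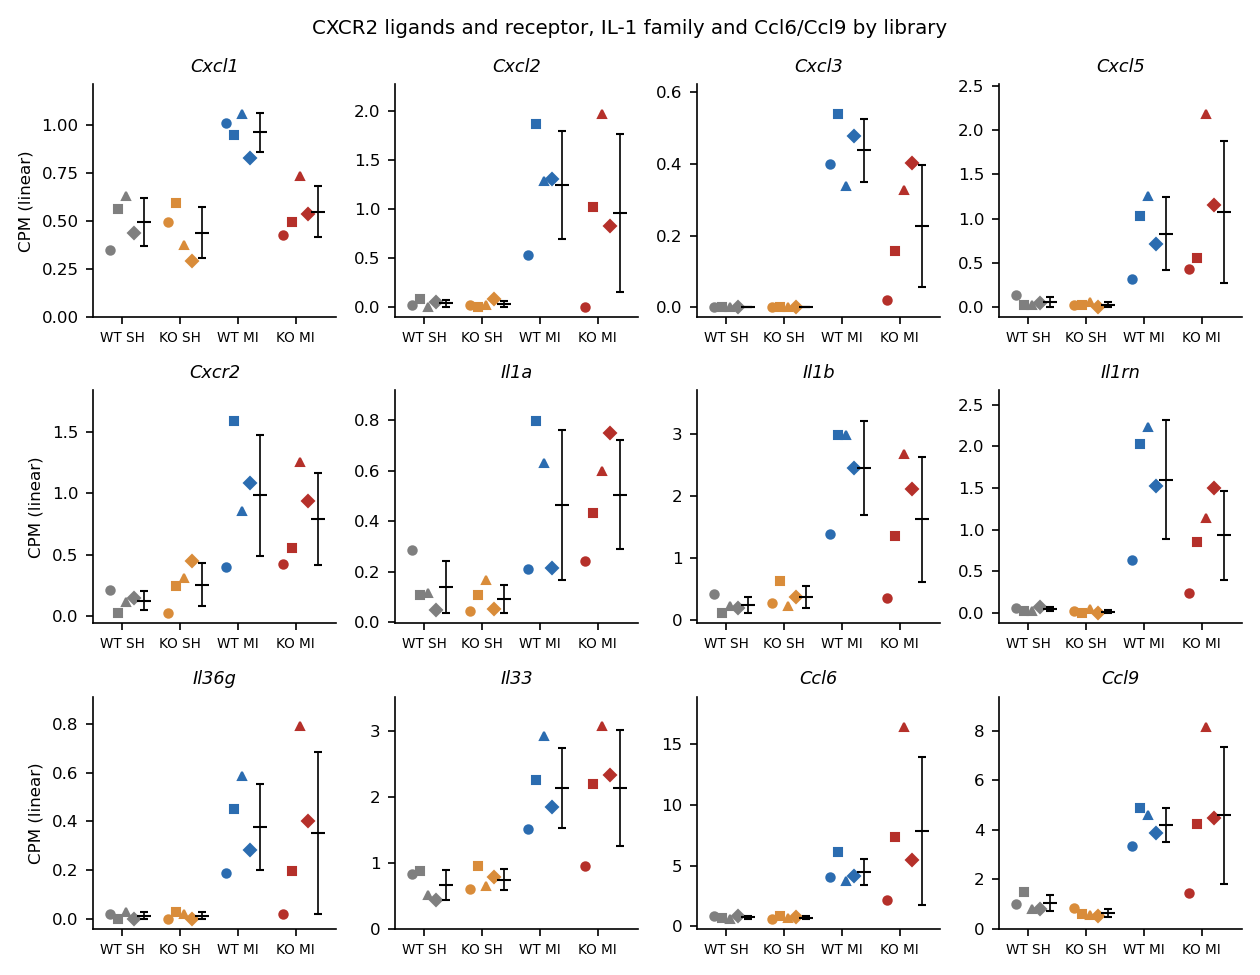
CPM per library (linear y axis) of CXCR2 ligands, Cxcr2, IL-1 family genes, Ccl6 and Ccl9 in the 4 groups; each point is a library (circle, square, triangle and diamond for the 1st to the 4th of a group), with the mean and SD beside it. Sham libraries lie near 0 for Cxcl2, Cxcl3, Cxcl5, Il1rn and Il36g, and KO MI 1 (red circle) is the lowest of its group in all 12 panels.

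Cxcr2 (ENSMUSG00000026180, chr1:74193150-74200405), the receptor of these ligands, rose in both genotypes. It had 0.211, 0.0267, 0.114 and 0.145 CPM in WT SH and 0.399, 1.59, 0.855 and 1.09 CPM in WT MI. The corresponding values in KO were 0.0225, 0.243, 0.313 and 0.446 CPM in KO SH and 0.427, 0.551, 1.25 and 0.936 CPM in KO MI. The groups did not overlap in WT, whereas KO SH 4 lay above KO MI 1. The fitted log2 fold change was 2.89 (SE 0.60, adjusted p = 0.0147) in WT and 1.63 (SE 0.55, adjusted p = 0.0616) in KO, and the latter was lost without KO SH 1 (adjusted p = 0.147), KO SH 2 (0.122), KO SH 3 (0.101) or KO MI 3 (0.192). The 8 neutrophil markers moved with it: their sum was 1.38 to 1.88 CPM in WT SH, 3.0 to 3.61 in KO SH, 6.56 to 20.9 in WT MI and 6.28 to 12.7 in KO MI. Of the 5 markers tested, 5 were higher in WT MI and 4 in KO MI, beside 2.13% and 5.31% of all tested genes. Ly6g was at 0 in 14 libraries and had 1 count in WT MI 2 and 1 in WT MI 3. The part of these markers in the values of the members was not tested.

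The other CXC members gave a mixed picture. Of 6 tested CXC ligands, 1 was higher in WT (Cxcl1) and 1 in KO (Cxcl10). Cxcl10, an interferon-induced ligand of CXCR3, had 0.113, 0.108, 0.125 and 0.131 CPM in KO SH and 0.569, 0.315, 0.308 and 0.294 CPM in KO MI, a log2 fold change of 1.62 (SE 0.44, adjusted p = 0.0252), and its call held whichever library was left out. In WT the change was 0.99 (SE 0.47, adjusted p = 0.303). Cxcl10 shares 133 exonic bases with Art3 (37.7 CPM) on the opposite strand. A strand setting of the counting is not given, so reads of this stretch may belong to either gene. Cxcl13, which guides B cells, was outside the test, was chosen after its values were seen, and had no count in WT SH and 2 in KO SH, against 16, 62, 30 and 63 in WT MI and 4, 142, 179 and 16 in KO MI. In WT it was at least 51.3-fold higher. Cxcl14 had 2 counts in WT SH and none in KO SH, with 6, 12, 10 and 8 in WT MI and 2, 2, 12 and 5 in KO MI. In CPM, KO MI 1 (0.0407) and KO MI 2 (0.0394) lay below WT SH 2 (0.0535), all under the floor of 3 counts. The other MI libraries lay above every sham library. Cxcl16, which draws CXCR6-bearing lymphocytes, had log2 fold changes of 0.15 (SE 0.13, adjusted p = 0.582) in WT and 0.25 (SE 0.13, adjusted p = 0.216) in KO. Cxcl16 shares 2213 exonic bases with Med11 (1.03 CPM) and 2132 with Zmynd15 (1.21 CPM) on the opposite strand, so its reads carry the same uncertainty. Its receptor Cxcr6, which lies within Fyco1, had 0.08 (SE 0.14, adjusted p = 0.830) and -0.34 (SE 0.14, adjusted p = 0.137). Cxcr4 had 0.06 (SE 0.24, adjusted p = 0.935) and -0.26 (SE 0.24, adjusted p = 0.538).

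Among the CC ligands, 2 were higher in WT MI and 4 in KO MI. Ccl6 and Ccl9, neighbours on chromosome 11 whose products bind CCR1, passed in both. Ccl6 (ENSMUSG00000018927, chr11:83478708-83483913) lay between 0.564 and 0.846 CPM in all 8 sham libraries. It reached 4.08, 6.09, 3.71 and 4.11 CPM in WT MI and 2.18, 7.34, 16.4 and 5.43 CPM in KO MI. No MI library overlapped a sham library, and the KO MI values spread from the lowest to the highest of all 8 MI libraries. Its log2 fold change was 2.62 (SE 0.45, adjusted p = 0.00425) in WT and 3.48 (SE 0.45, adjusted p = 0.000519) in KO. KO MI against WT MI gave 0.81 (SE 0.37, adjusted p = 0.379), but 1.12 without KO MI 1 (adjusted p = 0.0382). Ccl9 (ENSMUSG00000019122, chr11:83463745-83473161) went from 1.03 ± 0.323 CPM (SD, n = 4) in WT SH to 4.18 ± 0.687 CPM in WT MI, and from 0.635 ± 0.151 CPM in KO SH to 4.59 ± 2.75 CPM in KO MI. The log2 fold changes were 2.01 (SE 0.36, adjusted p = 0.00637) and 2.84 (SE 0.38, adjusted p = 0.000599), and the calls of both genes held whichever library was left out.

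Ccl2 and Ccl7, the ligands of CCR2 that release monocytes from bone marrow, passed in KO alone. Ccl2 (ENSMUSG00000035385) had 0.361, 0.216, 0.271 and 0.262 CPM in KO SH and 0.427, 0.571, 0.732 and 0.375 CPM in KO MI, without overlap. The WT groups overlapped, at 0.346, 0.695, 0.486 and 0.411 CPM in WT SH and 0.399, 0.689, 0.607 and 0.586 CPM in WT MI. The log2 fold change was 0.92 (SE 0.30, adjusted p = 0.0563) in KO and 0.25 (SE 0.28, adjusted p = 0.721) in WT, and the former was lost without KO SH 2 (adjusted p = 0.135), KO SH 3 (0.117), KO SH 4 (0.119), KO MI 2 (0.139) or KO MI 3 (0.187). Ccl7 had 1.69 (SE 0.58, adjusted p = 0.0655) in KO and 1.05 (SE 0.56, adjusted p = 0.371) in WT, and its call was lost without KO SH 1 (adjusted p = 0.142), KO SH 2 (0.156), KO SH 4 (0.164), KO MI 2 (0.159) or KO MI 3 (0.107). Ccl8, chosen after its values were seen, had no count in either sham group, with 4, 0, 2 and 3 counts in WT MI and 1, 2, 44 and 0 in KO MI, the 44 being those of KO MI 3. Ccl24, an eosinophil ligand, had its highest value in the same library, 1.18 CPM against 0.0203, 0.177 and 0.268 CPM in the other KO MI libraries, and passed in neither genotype in edgeR (adjusted p = 0.321 in WT and 0.145 in KO). In KO its log2 fold change was 2.02, and it passed in DESeq2 (adjusted p = 0.0927) and without KO MI 1 in edgeR (2.41, adjusted p = 0.0453), whereas without KO MI 3 it was 0.56 (adjusted p = 0.756).

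In edgeR, 1 of the 12 tested CC ligands fell in KO and 0 in WT. It was Ccl21a, which draws CCR7-bearing dendritic and T cells to lymph vessels. It had 1.31, 1.81, 1.92 and 2.02 CPM in KO SH and between 0.433 and 0.910 CPM in KO MI, without overlap. In WT the 4 sham libraries lay between 1.28 and 2.12 CPM, and 3 WT MI libraries between 0.456 and 0.799 CPM, with WT MI 3 at 1.98 CPM. Its log2 fold change was -1.35 (SE 0.36, adjusted p = 0.0219) in KO and -0.79 (SE 0.35, adjusted p = 0.265) in WT. Without WT MI 3 it passed in WT too, at -1.42 (adjusted p = 0.0164). Several near-identical Ccl21 copies lie on chromosome 4, so how reads were divided among them is uncertain.

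Among the CC receptors, Ccr1 and Ccr2 were higher in both genotypes, Ccr3 was higher in KO MI, and Ccr9 (below) was lower in KO MI. Ccr2 (ENSMUSG00000049103), the receptor of inflammatory monocytes, had 1.27, 0.695, 1.12 and 0.629 CPM in WT SH and 3.07, 4.28, 2.86 and 3.95 CPM in WT MI. In KO it had 1.17, 1.73, 1.48 and 1.42 CPM in KO SH and 2.13, 3.39, 5.26 and 2.94 CPM in KO MI. Neither genotype's groups overlapped, and KO SH had 3 of 4 values above the highest WT SH value. The fitted log2 fold change was 1.92 (SE 0.27, adjusted p = 0.000971) in WT and 1.25 (SE 0.25, adjusted p = 0.00538) in KO, and both calls held whichever library was left out. Ccr1, the receptor of Ccl6 and Ccl9, had 1.14 (SE 0.30, adjusted p = 0.0464) in WT and 1.27 (SE 0.29, adjusted p = 0.0105) in KO, and the WT call was lost without WT SH 3 (adjusted p = 0.129), WT MI 2 (0.146) or WT MI 4 (0.106).

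Ccr3, the eosinophil receptor, passed in KO with 1.35 (SE 0.48, adjusted p = 0.0767) and missed in WT with 1.80 (SE 0.58, adjusted p = 0.106) in edgeR, where DESeq2 called it (adjusted p = 0.052). Its KO call was lost without KO SH 1 (adjusted p = 0.139), KO SH 2 (0.186), KO SH 3 (0.109), KO SH 4 (0.128), KO MI 3 (0.319) or KO MI 7 (0.108). The macrophage markers summed to between 60.2 and 70.3 CPM in WT SH, 54.1 and 61.7 in KO SH and 70.5 and 86.6 in WT MI. In KO MI 1, 2, 3 and 7 they summed to 59.6, 75.3, 122 and 73.0 CPM, so only KO MI 3 exceeded the WT MI range. Of the 10 tested, 8 were higher in KO MI against KO SH and 0 in WT MI against WT SH in edgeR (2 at an unadjusted p under 0.05, and 0 in DESeq2). Beside these, 5.31% and 2.13% of all tested genes were higher. In KO SH, 3 of the 10 were lower than in WT SH. For the difference of the responses, 0 passed in edgeR or DESeq2 (4 at an unadjusted p under 0.05). In KO MI against WT MI, 0 passed in edgeR (2 at an unadjusted p under 0.05) and 1, Fcgr1, was lower in DESeq2. The part of these markers in the values of the CC members was not tested.

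Of the tested members, the largest log2 fold change in WT was that of Il1b. Of 5 tested IL-1 family ligands and inhibitors, 3 were higher in WT and 3 in KO, and of 7 tested receptors 2 and 3. Il1b (ENSMUSG00000027398, chr2:129206490-129213059), the fever cytokine that inflammasomes release, had 0.423, 0.107, 0.229 and 0.193 CPM in WT SH and 1.39, 2.99, 2.99 and 2.45 CPM in WT MI. In KO it had 0.271, 0.621, 0.229 and 0.367 CPM in KO SH and 0.346, 1.36, 2.68 and 2.11 CPM in KO MI. The WT groups were apart, whereas KO MI 1 lay within the KO SH range. The log2 fold change was 3.29 (SE 0.52, adjusted p = 0.00227) in WT and 2.14 (SE 0.50, adjusted p = 0.0111) in KO, and the difference of the 2 changes was -1.15 (SE 0.74, adjusted p = 0.515).

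Il1rn, the secreted antagonist of the IL-1 receptor, was too low in sham hearts for the test. It had 3, 1, 1 and 3 counts in WT SH and 30, 94, 99 and 70 in WT MI, and 1, 0, 2 and 0 in KO SH and 12, 43, 59 and 56 in KO MI. No MI library overlapped a sham library, and no test is given, since most of its counts come from the group where it is high. Il36g, an epithelial and myeloid IL-1 relative named here after its values were seen, had at most 1 count in each sham library, between 9 and 26 in WT MI and 1, 10, 41 and 15 in KO MI. Il1a had 0.0451, 0.108, 0.167 and 0.0525 CPM in KO SH and 0.244, 0.433, 0.598 and 0.749 CPM in KO MI, a log2 fold change of 2.37 (SE 0.59, adjusted p = 0.0162), against 1.64 (SE 0.55, adjusted p = 0.126) in WT. DESeq2 called it in WT (adjusted p = 0.0668), as did edgeR without WT SH 1 (2.35, adjusted p = 0.0763) or WT MI 1 (1.88, adjusted p = 0.0984).

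Il33, the alarmin of stromal cells, rose in both genotypes. It had 0.827, 0.882, 0.515 and 0.435 CPM in WT SH, 0.609, 0.945, 0.647 and 0.787 in KO SH, 1.51, 2.26, 2.92 and 1.85 CPM in WT MI and 0.956, 2.19, 3.06 and 2.33 CPM in KO MI. Every MI library was above every sham library, by log2 fold changes of 1.67 (SE 0.32, adjusted p = 0.00894) in WT and 1.52 (SE 0.31, adjusted p = 0.00577) in KO. Il1rl1, its receptor ST2, passed in KO with 1.31 (SE 0.39, adjusted p = 0.0377) and not in WT with 0.62 (SE 0.38, adjusted p = 0.444). The KO value was 0.69 without KO MI 3 (adjusted p = 0.197), and the call was also lost without KO SH 3 (adjusted p = 0.108).

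Il1r1, the signaling receptor of Il1a and Il1b and the most abundant member of its family, lay between 13.5 and 14.3 CPM in WT SH, 11.7 and 13.6 in KO SH, 18.4 and 20.1 in WT MI and 16.2 and 24.9 in KO MI. MI libraries were above sham libraries in both genotypes. Its log2 fold change was 0.72 (SE 0.10, adjusted p = 0.000722) in KO and 0.46 (SE 0.10, adjusted p = 0.0184) in WT, the latter under the minimum of 0.5. Il18r1 had 1.74 (SE 0.36, adjusted p = 0.0141) in WT and 0.96 (SE 0.32, adjusted p = 0.0618) in KO, and its partner Il18rap 1.74 (SE 0.37, adjusted p = 0.0183) and 0.79 (SE 0.36, adjusted p = 0.169). Without KO MI 2, Il18rap passed in KO (1.03, adjusted p = 0.0762). The KO call of Il18r1 was lost without KO SH 2 (adjusted p = 0.141), KO SH 3 (0.155), KO SH 4 (0.111) or KO MI 3 (0.269). Il18, their ligand, had 0.0192, 0.107, 0.172 and 0.0726 CPM in WT SH and 0.399, 0.452, 0.202 and 0.434 CPM in WT MI, a log2 fold change of 2.07 (SE 0.50, adjusted p = 0.0335) that was lost without WT SH 1 (adjusted p = 0.102). In KO it was 0.80 (SE 0.44, adjusted p = 0.267).

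**Figure D3:**
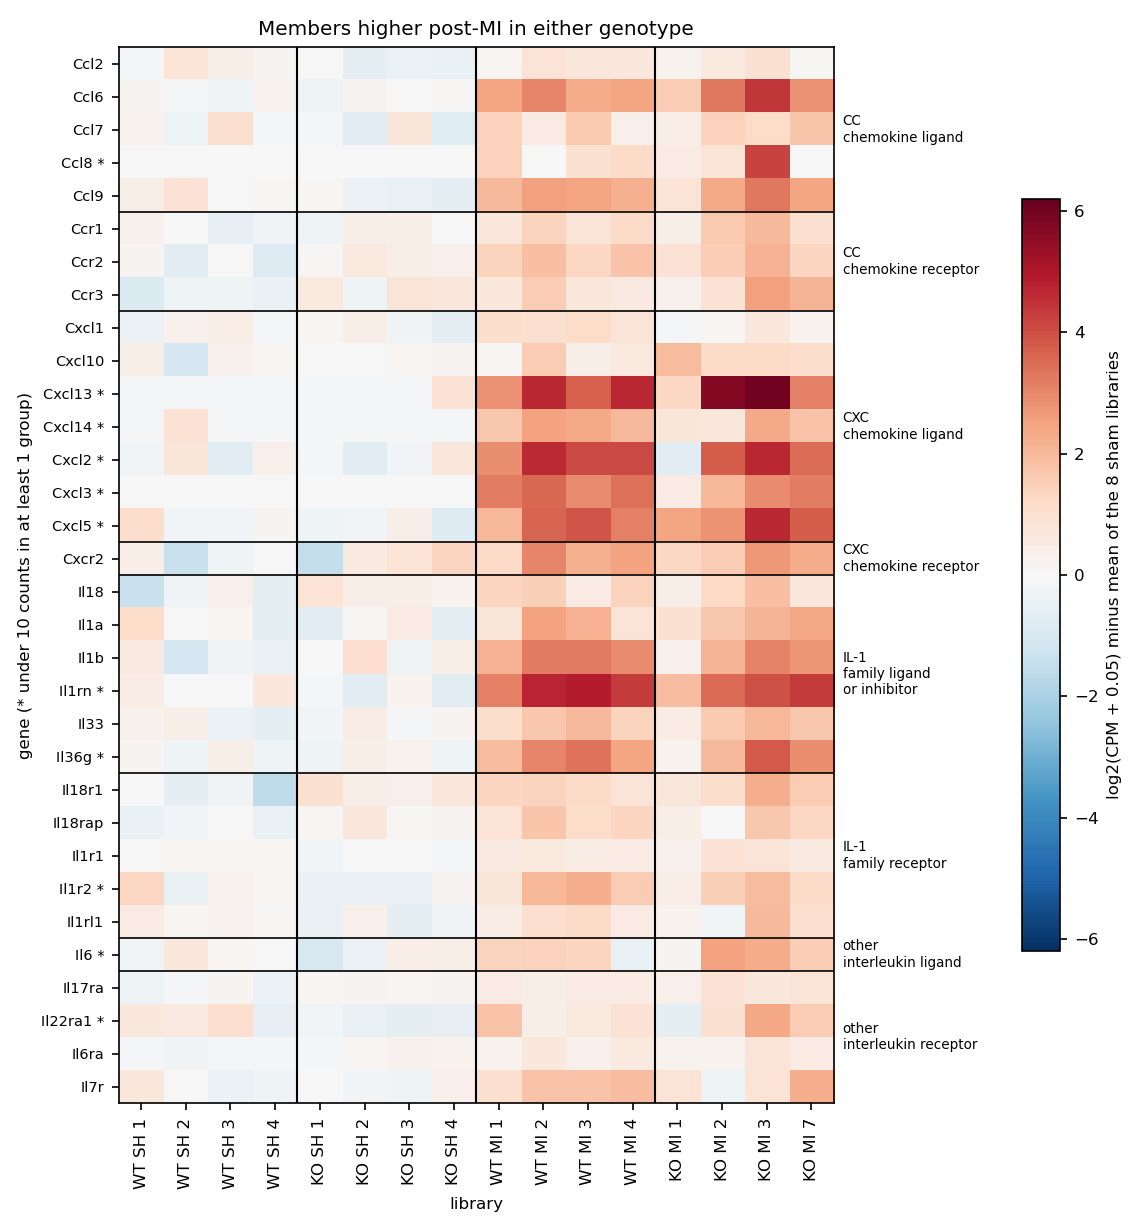
Level of 32 members that were higher post-MI in either genotype in the fit of genes with at least 10 counts over 16 libraries, as log2(CPM + 0.05) minus the mean of the 8 sham libraries (colour), per library (columns) and grouped by role (rows). Called higher in this fit were 1.94% of all genes in WT and 4.63% in KO. The members shown were picked on these same libraries, so their higher level post-MI follows from the choice and is no test. An asterisk marks members under 10 counts in at least 1 group, whose counts came mostly from MI libraries. KO MI 1 is the palest and KO MI 3 the darkest of the KO MI columns for most members.

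Among the other interleukins, calls were fewer. Of 9 tested ligands, 0 were higher in either genotype and 1, Il15, was lower in KO (in edgeR; 0 in WT passed an unadjusted p under 0.05 or DESeq2, and 1 each in KO). Of 21 tested receptors, 3 were higher in WT (Il6ra, Il7r and Il17ra) and 2 in KO (Il7r and Il17ra). Il17ra, the shared chain of IL-17 receptors, had between 1.52 and 2.17 CPM in WT SH and between 2.65 and 2.80 CPM in WT MI, and between 2.13 and 2.23 CPM in KO SH and between 2.46 and 3.68 CPM in KO MI. Groups were apart in both genotypes, with log2 fold changes of 0.63 (SE 0.14, adjusted p = 0.0191) and 0.54 (SE 0.13, adjusted p = 0.0154). Without KO MI 2 the KO change was 0.46, under the minimum fold. Il7r, the receptor of lymphoid progenitors, had 1.76 (SE 0.48, adjusted p = 0.0588) in WT and 1.39 (SE 0.51, adjusted p = 0.0876) in KO. Its WT call was lost without WT SH 2 (adjusted p = 0.130), WT SH 3 (0.144), WT SH 4 (0.111), WT MI 2 (0.137), WT MI 3 (0.113) or WT MI 4 (0.129). Its KO call was lost without any of the KO SH libraries (adjusted p between 0.117 and 0.185), KO MI 3 (0.114) or KO MI 7 (0.282).

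Il6ra had 0.59 (SE 0.15, adjusted p = 0.036) in WT, lost without WT MI 2 (adjusted p = 0.126), and 0.34 (SE 0.14, adjusted p = 0.143) in KO. Its ligand Il6, too low for the test, had 2, 4, 2 and 2 counts in WT SH and 10, 10, 9 and 1 in WT MI, and 0, 1, 4 and 3 in KO SH and 3, 26, 23 and 9 in KO MI. Il6st had group means between 126 CPM in WT SH and 134 CPM in KO MI and no log2 fold change over 0.07 in size. Il11 had 16 counts in all libraries together. Il4ra had 0.40 (SE 0.08, adjusted p = 0.00383) in KO and 0.23 (SE 0.08, adjusted p = 0.112) in WT, without overlap of the groups in either. Il34, a macrophage survival factor, and Il7, the lymphoid growth factor, passed in neither genotype, with log2 fold changes of 0.43 and -0.51 in WT and -0.36 and -0.04 in KO. Il10ra, the IL-10 receptor chain, had 0.68 (SE 0.22, adjusted p = 0.115, and 0.0581 in DESeq2) in WT, where it passed in edgeR without WT SH 1 (0.92, adjusted p = 0.0482), and 0.53 (SE 0.22, adjusted p = 0.138) in KO. Il10rb had -0.22 (SE 0.08, adjusted p = 0.180) and -0.19 (SE 0.08, adjusted p = 0.149). Il11ra1 rose in KO by 0.25 (SE 0.08, adjusted p = 0.0544), under the minimum fold, and had 0.02 (SE 0.08) in WT.

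Il15, which sustains natural killer and memory T cells, and Ccr9, a gut and thymus homing receptor, were the members lower in KO MI than in KO SH beside Ccl21a. Il15 had 6.11, 7.06, 6.49 and 6.17 CPM in WT SH, 8.97, 9.91, 7.14 and 9.21 in KO SH, 7.02, 4.82, 6.88 and 6.19 in WT MI, and 6.26, 3.19, 4.32 and 6.07 in KO MI. KO SH lay above all other groups. The log2 fold change of KO SH against WT SH was 0.45 (SE 0.17, adjusted p = 0.121, exact permutation p = 0.0286), and that of KO MI against KO SH was -0.83 (SE 0.17, adjusted p = 0.00569), against -0.05 (SE 0.17) in WT. The difference of the 2 responses was -0.78 (SE 0.24, adjusted p = 0.206 in edgeR and 0.0668 in DESeq2). Il15ra, which presents IL-15, had -0.31 (SE 0.10, adjusted p = 0.0472) in KO, under the minimum fold, and -0.24 (SE 0.10, adjusted p = 0.216) in WT.

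Ccr9 had 2.60, 3.18, 3.12 and 3.17 CPM in WT SH, 4.85, 3.73, 3.84 and 3.93 in KO SH, 2.84, 3.34, 3.33 and 2.52 in WT MI, and 2.62, 2.24, 2.54 and 2.41 in KO MI. KO SH again lay above every other library. KO SH exceeded WT SH by 0.44 on the log2 scale (SE 0.12, adjusted p = 0.0349), under the minimum fold, and KO MI against KO SH gave -0.74 (SE 0.12, adjusted p = 0.00189), against -0.00 (SE 0.12) in WT. The difference of the responses was -0.73 (SE 0.17), with an adjusted p of 0.148 in edgeR and 0.0252 in DESeq2. Without KO MI 7 it passed in edgeR for both Ccr9 (-0.73, adjusted p = 0.0359) and Il15 (-0.89, adjusted p = 0.0462), and for Ccr9 also without WT SH 4 (-0.76, adjusted p = 0.0951). The span of Ccr9 overlaps that of Lztfl1 (25.4 CPM) on the opposite strand without shared exons, and shares 1932 exonic bases with the antisense lncRNA Gm17021. Ccr9 also shares 592 exonic bases with the lncRNA Gm17200 on its own strand. A strand setting of the counting is not given, so reads of Ccr9 and Gm17021 cannot be told apart. Over all tested members the difference of the responses had 0 calls in edgeR, where 0.0248% of all genes passed, 2 members at an unadjusted p under 0.05 (Ccr9 and Il15), beside 13.6%, and the same 2 in DESeq2, beside 2.27%.

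Sham hearts of the 2 genotypes differed in few members. In KO SH against WT SH, 2 of the 72 were higher and 0 lower, where 2.48% of all tested genes were higher and 2.53% lower, so this count is near the background. At an unadjusted p under 0.05, 15 members passed, beside 22.8%, and DESeq2 called 1, Il18r1, beside 6.04%. Without a minimum fold, 6 passed, beside 12.3%. The libraries did not overlap for 7 higher and 4 lower members, beside 8.35% and 10.2% of all tested genes. Il18r1 (ENSMUSG00000026070, chr1:40504712-40540014) had 0.634, 0.401, 0.515 and 0.169 CPM in WT SH and 1.24, 0.810, 0.772 and 1.02 CPM in KO SH. The groups did not overlap, and the log2 fold change was 1.14 (SE 0.37, adjusted p = 0.068). It was lost without WT SH 2 (adjusted p = 0.142), WT SH 4 (0.138), KO SH 1 (0.182) or KO SH 4 (0.137). Il17re, the IL-17C receptor chain, had 0.0769, 0, 0.0572 and 0.145 CPM in WT SH and 0.361, 0.243, 0.125 and 0.289 CPM in KO SH, which overlap. Its log2 fold change of 1.78 (SE 0.58, adjusted p = 0.068) was lost without WT SH 1 (adjusted p = 0.150), WT SH 2 (0.145), WT SH 3 (0.130), KO SH 1 (0.185), KO SH 2 (0.114) or KO SH 4 (0.140).

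Cxcl12, the most abundant chemokine, was lower in KO sham hearts by less than the minimum fold. It had 111, 115, 103 and 113 CPM in WT SH and 77.0, 89.5, 84.1 and 82.7 CPM in KO SH, without overlap, and the log2 fold change was -0.41 (SE 0.13, adjusted p = 0.0626). In MI hearts it had 100.2, 104, 88.4 and 108 CPM in WT MI and 115, 83.0, 105 and 61.2 CPM in KO MI, which overlap (log2 fold change -0.14, SE 0.13, adjusted p = 0.760). Il17rd, a receptor-like brake on FGF signaling picked here on its values, was higher in KO SH by 0.39 (SE 0.09, adjusted p = 0.0191), at 13.4, 11.8, 15.4 and 12.5 CPM in WT SH and 17.5, 16.8, 16.8 and 18.4 CPM in KO SH. Il2rg, the common gamma chain, was lower by -0.27 (SE 0.09, adjusted p = 0.0923). Of the 5 neutrophil markers tested, 2 (S100a8 and S100a9) were higher in KO SH and 0 lower. Of the 10 macrophage markers tested, 3 (C1qa, C1qb and Fcgr1) were lower and 0 higher. Beside these, 2.48% of all tested genes were higher and 2.53% lower. Their part in the member values was not tested.

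**Figure D4:**
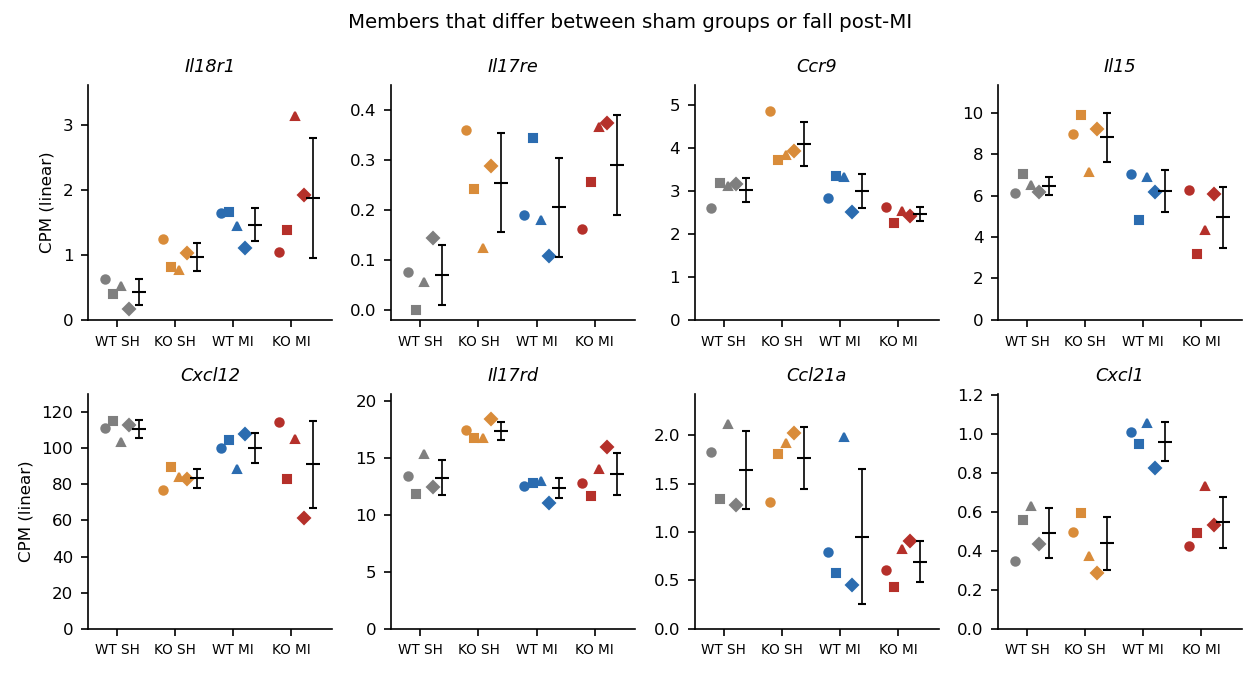
CPM per library (linear y axis from 0) of 8 members in the 4 groups, with the mean and SD beside the points (1st to 4th library as circle, square, triangle and diamond). KO SH lies above the other groups for Ccr9 and Il15 and below WT SH for Cxcl12, and WT MI lies above the other groups for Cxcl1.

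Post-MI, no member passed between the genotypes in edgeR with all libraries. With 1 KO MI library left out, Ccl6 and Cxcl1 passed as given above. Il7r passed as lower in KO MI without KO MI 7 (log2 fold change -1.22, adjusted p = 0.0954). In KO MI against WT MI, 0 of 72 tested members were called in edgeR, where 1.73% of all tested genes were called. There were 8 members at an unadjusted p under 0.05, beside 12.4% of all tested genes, and DESeq2 called Cxcl1 alone, beside 2.45%. The 8 were Cxcl1, Cxcr4, Ccr9 and Ccl5 on the lower side and Il13ra1, Ccl6, Il17rc and Il13ra2 on the higher side, of which Ccl5, Il17rc and Il13ra2 are named on their values, with adjusted p between 0.119 and 0.389. The libraries of the groups did not overlap for 1 higher member, Il13ra1, and 1 lower member, Cxcl1, where 2.74% and 3.73% of all tested genes did not overlap in these directions. Il13ra1 had between 36.1 and 38.1 CPM in WT MI and between 38.5 and 42.3 CPM in KO MI, a log2 fold change of 0.13 (SE 0.05, adjusted p = 0.280). For the members most raised by MI, the intervals were wide: the SE of KO MI against WT MI was 0.41 for Il1b, 0.47 for Cxcr2 and 0.37 for Ccl6 on the log2 scale.

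Within KO MI the same libraries were at the ends for most members that were higher post-MI. Of the 22 tested members that were higher post-MI in either genotype, KO MI 1 was the lowest of its group for 17 and KO MI 3 the highest for 16. In WT MI, replicate 2 was the highest for 16. These ranks were not counted over all tested genes, so an order of the whole library cannot be told apart. The calls also used KO MI 3 itself, which favours members where it is high. The 22 were picked as higher post-MI in these same libraries, so a higher sum in MI than in sham follows from that choice. Their summed level was 26.2 to 28.7 CPM in WT SH, 25.8 to 30.3 in KO SH, 49.3 to 64.9 in WT MI, and 38.1, 62.6, 89.2 and 59.1 in KO MI. KO MI 1 therefore lay below all WT MI libraries and KO MI 3 above them. Without KO MI 1, 20 members were higher and 3 lower in KO MI against KO SH, beside 6.32% and 2.77% of all tested genes, and without KO MI 3, 11 were higher and 3 lower, beside 4.1% and 1.6%. The summed neutrophil markers were also lowest in KO MI 1 (6.28 CPM) and highest in KO MI 3 (12.7 CPM) of the group, and the mast cell and B cell markers were highest in KO MI 3, at 12.3 and 9.43 CPM. Infarct size and the share of scar in each library were not analysed here.

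**Figure D5:**
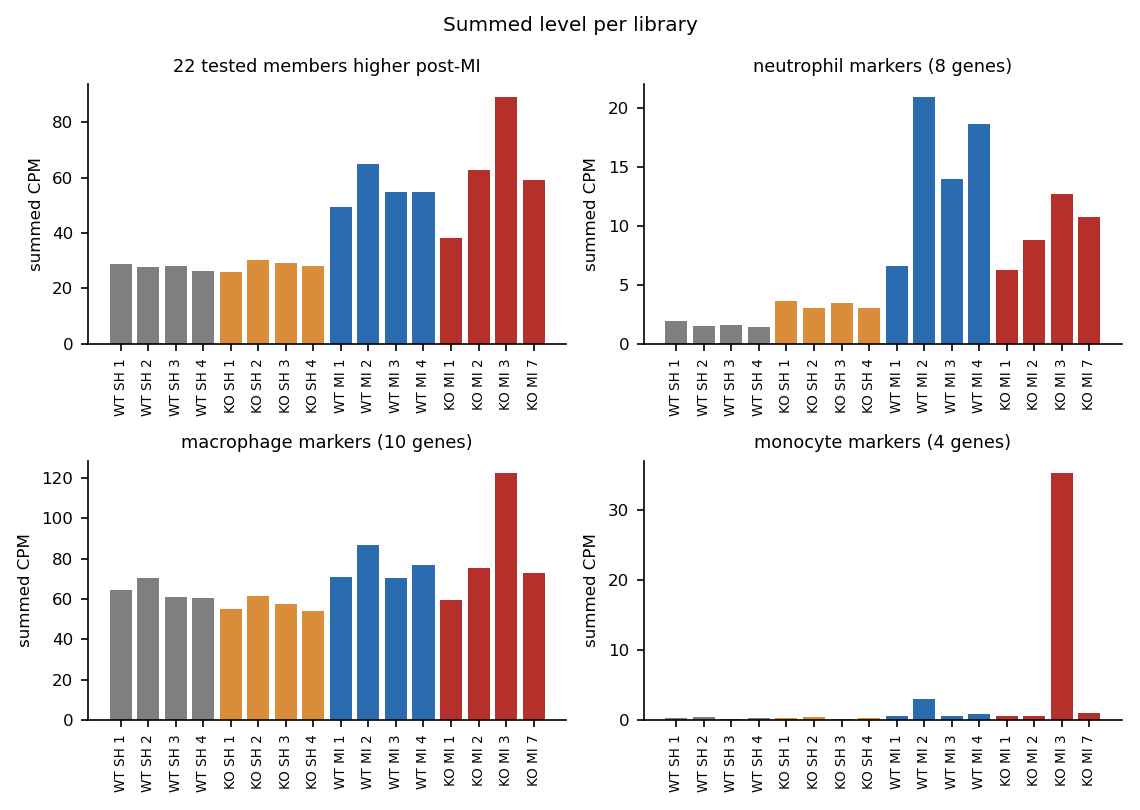
Summed CPM per library (bars from 0) of the 22 tested members higher post-MI and of the fixed neutrophil, macrophage and monocyte marker lists, coloured by group. The 22 members were picked as higher post-MI in these same libraries, so their taller bars in MI follow from that choice. For the neutrophil markers, a fixed list, the bars of WT MI and KO MI also exceed those of sham. KO MI 3 has the tallest bar for the members, the macrophage markers and the monocyte markers.

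Genes that act with the members but fall outside the symbol pattern were read as 3 lists. Of 13 other chemokine system genes (11 tested), 0 were called in WT MI against WT SH in edgeR (2 at an unadjusted p under 0.05 and 0 in DESeq2), and Ackr2, a scavenger of CC chemokines, and Cmklr1, the chemerin receptor, were higher in KO MI against KO SH, by 0.81 (SE 0.22, adjusted p = 0.0241) and 0.56 (SE 0.13, adjusted p = 0.00927). Of all tested genes, 2.13% were higher in WT MI against WT SH and 5.31% in KO MI against KO SH. Ackr3, the scavenging receptor of CXCL12, had less in KO sham hearts, by -0.59 (SE 0.15, adjusted p = 0.020), where 2.53% of all tested genes were lower. Ackr3 had 18.5, 20.9, 15.6 and 18.6 CPM in WT SH and 9.81, 11.7, 14.9 and 12.3 CPM in KO SH.

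Of 34 genes of the IL-6 family, common chains and JAK-STAT pathway (32 tested), 3 were higher in WT MI and 6 in KO MI. Beside these, 2.13% and 5.31% of all tested genes were higher. DESeq2 also called 3 and 6, and 11 and 13 passed an unadjusted p under 0.05. In KO SH against WT SH, 2 were higher in edgeR, beside 2.48%, and DESeq2 called Csf3r and Tslp (0.71, adjusted p = 0.0544). In KO MI against WT MI, 0 passed in edgeR and 1 in DESeq2, Cntf (2.36, adjusted p = 0.0773), beside 2.45%. Csf2rb, the chain shared by the IL-3, IL-5 and GM-CSF receptors, rose in both, by 1.67 (SE 0.28, adjusted p = 0.0035) and 2.16 (SE 0.29, adjusted p = 0.000557). Csf2rb2 also rose in both, by 1.39 (SE 0.28, adjusted p = 0.0128) and 1.33 (SE 0.27, adjusted p = 0.0058). Csf3r, the G-CSF receptor of neutrophils, rose by 2.5 (SE 0.42, adjusted p = 0.0037) in WT MI and was already higher in KO SH than in WT SH by 1.80 (SE 0.44, adjusted p = 0.0184). Lif, Csf1r, Stat4 and Socs3 passed in KO MI against KO SH alone, and the difference from WT passed for none of them (adjusted p between 0.360 and 0.793). Of the 25 IL-1, Toll adaptor and NF-kB genes, all tested and including Myd88, Nfkbia and Tnf, 0 were called in any of the 5 comparisons in edgeR. At an unadjusted p under 0.05, 10 of them passed in KO MI against KO SH, beside 26.2% of all tested genes. In the other comparisons between 1 and 6 passed, beside between 12.4% and 22.8%. DESeq2 called 2, both in KO MI against KO SH: Nlrp3, the inflammasome sensor (log2 fold change 1.27, adjusted p = 0.0605), and Casp1, which cleaves pro-IL-1b (0.67, adjusted p = 0.083).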

How the data were processed

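Total RNA of the ventricles of 16 mice (4 per group) was depleted of ribosomal RNA and sequenced as strand-specific 150 bp pairs. The authors deposited RSEM expected counts as whole numbers, not normalized, for 51912 Ensembl genes. The study's methods name Skewer 0.1.123, STAR 2.5.3a and RSEM 1.3.0, whereas the submitters' processing notes name cutadapt 3.4, HISAT2 2.2.1 and RSEM 1.1.17. Both name GRCm39. Which of these made the table, the annotation release and the strand setting of RSEM are not given in the sources used here, and RSEM divides reads among near-identical copies by estimate.

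Symbols, positions and exon lengths were taken from GENCODE M39, which matched 47772 IDs. Groups came from the sample labels. Genes with at least 10 counts in each of the 4 groups (20159 genes) were fitted with edgeR 4.0.16 (R 4.3.3) over all 16 libraries with 1 coefficient per group and TMM scaling, and its quasi-likelihood F-test gave p-values that were adjusted after Benjamini and Hochberg. The SE is the log2 fold change divided by the root of F. The difference of responses is KO MI against KO SH minus WT MI against WT SH. Exact permutation tests were two-sided on log2(CPM + 0.05), with 35 distinct splits and a smallest p of 0.0286. Totals ran from 33783874 to 57470159 counts; floors cover counting error only. The labels do not tie libraries to litters, so p-values measure the spread between these mice. No replicate pair agreed within sampling noise (chi-square per degree of freedom at least 4.70). Pairs of KO MI had between 20.5 and 62.9, beside at most 22.8 in the other groups. The test was also run on simulated counts with 1 spread for all genes. Only more highly expressed genes were changed there, so it says nothing on weakly expressed members.

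Alternatives were DESeq2 1.42.0, its size factors in edgeR, no filter, a filter of 10 counts over 16 libraries, a replicate block, a term for Xist, only the groups compared, other thresholds, a pseudocount of 0.5 and leaving out each library. Members and lists were chosen with earlier results of these data known. Named members were those called in any comparison, the 10 with the highest CPM per kb, and a list of 30 genes known in cardiac injury or immune cell supply. Any other member described was picked after its values were seen. A result for a single member is not reported here, though the counts include it. Promoters are from RefSeq (GRCm38.p6).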

Additional observations from a re-analysis of the deposited data

Results flagged for a closer look

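In 5 of 104 groups of 4 libraries tested for named members, 1 library stood far from the other 3 (its gap to the nearest, divided by the range of the group, exceeded Dixon's critical value for 4 samples), and chance alone gives about 1 in 20 such groups. Ccl6 had 6.09 CPM in WT MI 2, against 3.71 to 4.11 CPM in the other WT MI libraries. Ccr3 had 0.538 CPM in the same library, against 0.239 to 0.270 CPM in the others. Il18rap had 0.486 CPM in KO SH 2, against 0.292 to 0.315 CPM in the rest of KO SH. Cxcl10 had 0.569 CPM in KO MI 1, against 0.294 to 0.315 CPM, in the library that was the lowest of its group for most other members higher post-MI. Ccr9 had 2.60 CPM in WT SH 1, below the 3.12 to 3.18 CPM of the other WT SH libraries.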

How the results depend on the processing

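Of the 38 member calls, 23 held in every fit that left out 1 library, and 29 had an exact permutation p under 0.05 with either pseudocount. No call changed direction in 568 refits, and 69 refits lost one. Of the 38 calls, 7 were lost when only the groups compared were fitted. All 7 were in KO MI against KO SH: Ccl2, Ccl7, Ccr3, Cxcr2, Il18r1, Il1rl1 and Il7r (adjusted p between 0.104 and 0.171). Leaving out each library gave between 11 and 16 called members in WT MI against WT SH, 14 and 23 in KO MI against KO SH, 0 and 3 in KO SH against WT SH, 0 and 1 in KO MI against WT MI, and 0 and 2 for the difference of responses. Sham calls fell to 0 without WT SH 2, KO SH 1 or KO SH 4. With DESeq2, 1 member was called in KO MI against WT MI, 1 in KO SH against WT SH and 2 for the difference of responses. In KO SH against WT SH, an adjusted p threshold of 0.05 left 0 members and no minimum fold gave 6. Without a filter, 23 members were called in WT MI against WT SH and 32 in KO MI against KO SH. The filter over 16 libraries also gave 32 in the latter, 29 of them higher, beside 4.63% of all genes in that fit. Members near 0 in sham then enter through their MI libraries, so these counts are no test of them. Replicate numbers did not pair the libraries: deviations of 21 same-numbered pairs correlated between -0.06 and 0.11. With the number as a block, 1 member (Cxcl1) was called in KO MI against WT MI and 2 (Ccr9 and Il15) for the difference of responses. In the block fit, Ccr3, Il17ra, Il18r1 and Il7r were not called in KO MI against KO SH. Levels under 0.0577 to 0.0858 CPM, depending on the library, lie below the floor of 3 counts, and differences between groups that both lie there were not detectable at this depth.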
